A study of Rattus norvegicus with 6 samples.

Results

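Noncoding RNA genes were taken as the genes whose transcript accessions in the deposited tables were all of the RefSeq NR_ kind, with no NM_ accession, and that were listed in at least 1 of the 6 libraries. They numbered 101 of 14346 genes. The libraries came from rat dorsal root ganglia, which hold the cell bodies of sensory neurons, 7 days after a sham operation (3 libraries) or after partial sciatic nerve ligation (pSNL, 3 libraries), a model of neuropathic pain in which part of the nerve is tied. Strain, sex and age, and whether a library is 1 animal or a pool, are not stated in the labels, so the p-values speak only of how far these libraries scatter, some of which may be technical. Each library held 4310643 to 4416121 estimated counts, and values are given as CPM (counts over library sizes scaled by TMM, a trimmed mean), where 1 CPM was 4.33 to 4.4 counts.

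Noncoding RNAs act as RNA. Ribosomal RNAs form the ribosome, microRNAs are cut from hairpins in longer transcripts and pair with messenger RNAs through their seed, snoRNA host genes carry guide RNAs of ribosomal RNA modification in their introns, and long noncoding RNAs such as H19 come from imprinted or other regulated loci. The NR_ prefix marks RefSeq transcripts not annotated as coding, and transcribed pseudogenes carry it too. Matched to the RefSeq gene table of the assembly GRCr8, 61 of the 101 genes were microRNAs, 19 long noncoding RNAs, 9 transcribed pseudogenes, 5 ribosomal RNA genes and 1 an RNase P or MRP type RNA (Rpph1), and 2 were not matched. The other 4 (Rpl37a, Tmem80, RGD1559747 and Rhno1) are protein coding in that newer table, so the label does not hold for them in GRCr8. Of 17 well known long noncoding RNA symbols looked for, 2 (H19 and Bc1) were among the 101. The annotation used for counting is not named, so a symbol that is not among them may have been missing from it. Its absence is no measure of expression.

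The promoters below are shown because they belong to the member with the smallest p (LOC100910973), to a member that shares its promoter region with a coding gene (2810025M15Rikl) and to the snoRNA host gene Gas5. Each runs from 250 bases before the annotated start to 50 bases after it, from RefSeq on GRCr8, in lower case with a cyclic AMP response element in capitals. LOC100910973 lies at chr1:217133198-217133497 on the minus strand, 2810025M15Rikl at chr13:72102797-72103096 and Gas5 at chr13:75836713-75837012, both on the plus strand.
LOC100910973: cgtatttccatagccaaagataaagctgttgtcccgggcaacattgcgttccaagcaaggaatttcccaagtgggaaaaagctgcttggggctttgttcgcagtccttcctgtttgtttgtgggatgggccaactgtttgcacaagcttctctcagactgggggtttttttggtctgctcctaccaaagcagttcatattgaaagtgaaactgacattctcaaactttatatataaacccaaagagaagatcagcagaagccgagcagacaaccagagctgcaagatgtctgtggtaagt
2810025M15Rikl: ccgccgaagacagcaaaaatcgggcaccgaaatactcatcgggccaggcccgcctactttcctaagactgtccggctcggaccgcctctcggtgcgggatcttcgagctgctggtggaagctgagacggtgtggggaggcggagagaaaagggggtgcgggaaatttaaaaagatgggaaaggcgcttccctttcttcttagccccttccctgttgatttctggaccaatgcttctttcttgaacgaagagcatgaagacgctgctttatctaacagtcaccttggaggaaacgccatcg
Gas5: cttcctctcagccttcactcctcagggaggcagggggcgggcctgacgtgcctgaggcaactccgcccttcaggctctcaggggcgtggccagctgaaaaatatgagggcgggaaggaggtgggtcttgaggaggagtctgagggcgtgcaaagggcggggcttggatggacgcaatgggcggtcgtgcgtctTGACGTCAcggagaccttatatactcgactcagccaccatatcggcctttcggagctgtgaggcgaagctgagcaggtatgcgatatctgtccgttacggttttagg
The window of Gas5 holds TGACGTCA, the element read by CREB and ATF factors, from base -57, and the other windows shown hold neither that element nor an AP-1 motif (TGANTCA). Both motifs were searched on both strands. The first was in 1.83% and the second in 7.33% of the 33469 promoter windows of the table. A window was given for 19 of the 101 genes, of which 1 held the first motif (Gas5) and 1 the second (RT1-CE6). LOC100910973 has a second annotated start, whose window held neither.

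Mature microRNA sequences, from RefSeq on GRCr8, are shown for the hairpin with most counts (Mir22) and for pairs that share a locus or a seed. Capitals mark the seed, bases 2 to 8. The miR-22 arms lie at chr10:60805349-60805370 (5p) and chr10:60805387-60805408 (3p) on the plus strand, miR-3074 at chr17:1818712-1818733 (plus) and miR-24-1-5p at chr17:1818710-1818731 (minus). On chromosome 13, miR-29c-3p lies at chr13:109099412-109099433 and miR-29b-3p, from Mir29b2, at chr13:109098882-109098904 (both plus), and miR-3556b at chr13:109099412-109099431 (minus).
rno-miR-22-5p: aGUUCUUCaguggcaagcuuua
rno-miR-22-3p: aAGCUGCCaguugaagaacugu
rno-miR-3074: gAUAUCAGcucaguaggcaccg
rno-miR-24-1-5p: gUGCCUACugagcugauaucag
rno-miR-29c-3p: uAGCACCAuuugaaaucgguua
rno-miR-29b-3p: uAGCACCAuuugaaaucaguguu
rno-miR-3556b: aCCGAUUUcaaauggugcua
The 3p arms of Mir29c and Mir29b2 share the seed AGCACCA. The mature miR-3074 and miR-24-1-5p lie on opposite strands and share 20 bases, and so do miR-3556b and miR-29c-3p. No source used here says if reads were counted by strand, so which strand the reads of such pairs came from is uncertain. The counts of Mir3074, Mir24-1, Mir3556b and Mir29c were whole in every library. A mature sequence was found for 60 of the 61 microRNA genes, all but Mir3577. Their 100 mature sequences had 89 distinct seeds, of which 8 were shared by several genes.

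The noncoding genes took a small share of the reads. By library, they held 0.134%, 0.268% and 0.139% of all counts in sham replicates 1 to 3 and 0.121%, 0.145% and 0.245% in pSNL replicates 1 to 3. The share was high in sham replicate 2 and pSNL replicate 3, and the groups overlapped. The means were 0.180% ± 0.076 in sham and 0.170% ± 0.066 in pSNL (SD, n = 3 each). Ribosomal RNA made up 71.03% to 89.02% of the noncoding counts, and the other 96 genes together held 0.0284% to 0.0433% of a library. By library, ribosomal RNA held 0.0856% to 0.238% of all counts. These are shares of the reads that were counted, and steps before counting can remove such RNA. They are therefore no measure of abundance in the tissue. The 2 leading genes, Rn28s and Rn18s, took 79.9% of all noncoding counts and the 12 leading genes 96.4%.

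**Figure D1:**
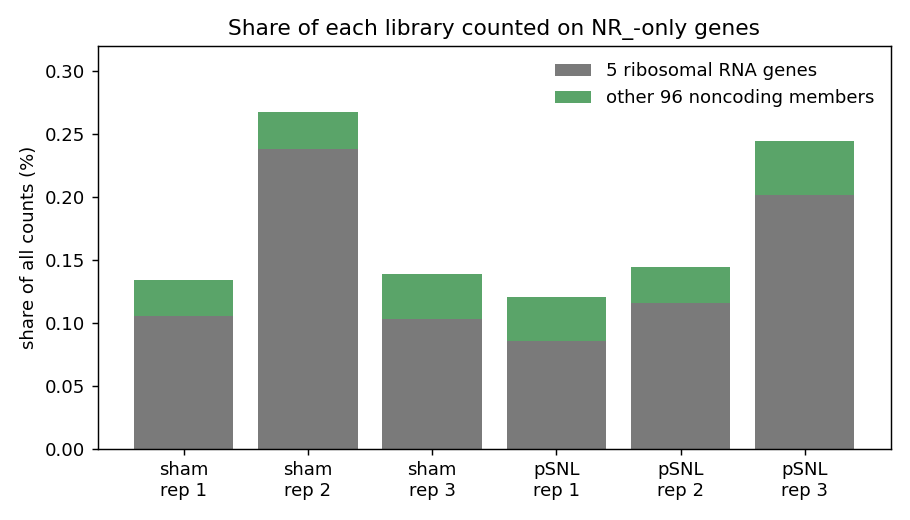
Share of all counts (%) on noncoding genes in each library, with the 5 ribosomal RNA genes in grey and the other 96 genes in green. The total lies between 0.121% and 0.268%, and sham replicate 2 and pSNL replicate 3 stand highest.

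Most of the genes were barely detected. Of the 101, 26 were listed in all 6 libraries (25.7%, against 85.5% of the 14245 genes with an NM_ accession), 33 were listed in a single library, and 53 had at most 3 counts over all libraries. Their median total was 3.0 counts, against 496 for genes with an NM_ accession. A count of 0 in a library allows up to 3 counts, or 0.681 to 0.694 CPM. Only 20 of the 101 passed the filter on low counts and entered the comparison of pSNL with sham, namely 4 ribosomal RNAs, 7 long noncoding RNAs, 3 pseudogenes, the 4 genes now annotated as coding, 1 microRNA (Mir22) and 1 unmatched gene.

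Comparing pSNL with sham, edgeR's quasi-likelihood test called 0 of the 20 noncoding genes at an adjusted p of 0.05 and 51 of all 11091 tested genes (0.46%). Higher in pSNL were 49 of all genes (0.442%) and lower 2 (0.018%). An unadjusted p under 0.05 was found for 3 of the 20, and for 15.5% of all tested genes. DESeq2 called 0 of the 25 noncoding genes to which it gave an adjusted p (1 with an unadjusted p under 0.05) and 2.59% of all genes, and limma on log2 FPKM called none of the noncoding genes. The fold change was positive in 9 of the 20 and negative in 11, with a median log2 fold change of -0.01, and the median over all tested genes was 0.0. Groups did not overlap for 5 of the 20, with 3 higher and 2 lower in pSNL, where 21.5% of all tested genes (11.1% higher and 10.4% lower) had groups that did not overlap. These shares lie near those of all genes and are no result about the noncoding genes.

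**Figure D2:**
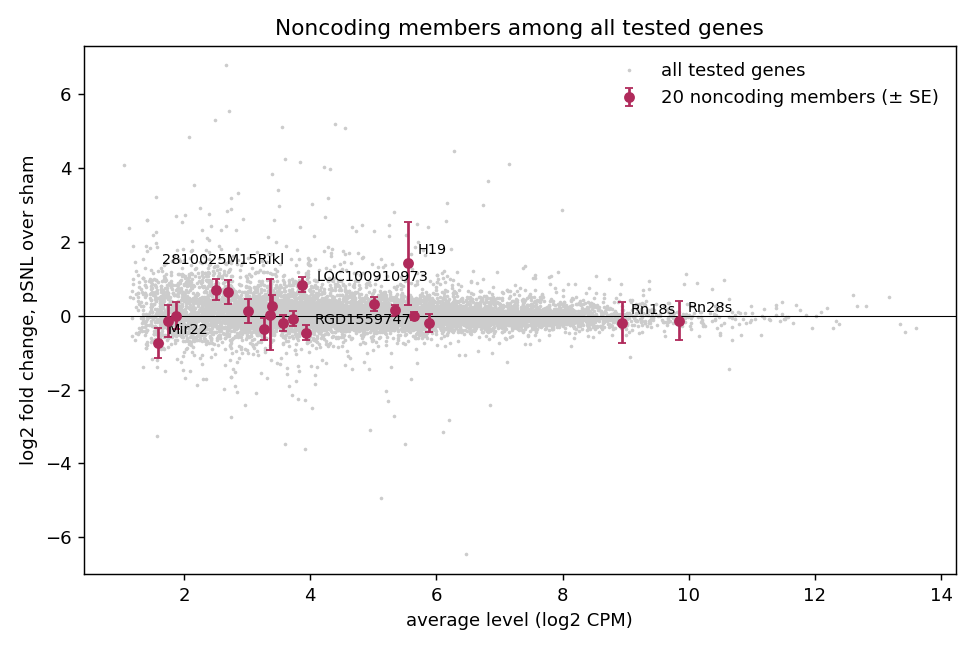
Log2 fold change of pSNL over sham against average level (log2 CPM) for all tested genes (grey) and for the 20 noncoding genes (points with ± SE). The noncoding genes lie among the other genes, with H19 at 1.41 ± 1.13 and LOC100910973 at 0.84 ± 0.20.

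For 6 injury genes (Atf3, Gal, Npy, Sprr1a, Sox11 and Gap43), all pSNL libraries lay above the sham libraries. The list was chosen with earlier results of these data known, so it is no independent check of the labels. Sprr1a, Sox11 and Gap43 rose in edgeR's test (adjusted p = 0.00493, 0.024 and 0.0416). Atf3, Gal and Npy did not pass its threshold (edgeR adjusted p = 0.0891, 0.0891 and 0.142). The sensory neuron markers looked for were listed above 0 in every library for 9 of 10 symbols, with sums of 24120 to 33206 CPM. Some libraries stand apart. Skeletal muscle markers (6 listed) summed to 511 CPM in sham replicate 3 and 977 CPM in pSNL replicate 3, against 11.5 to 19.3 CPM in the other libraries, where Myh4 was at 0 in 1 library and Tnni2 in 3. Central glia markers (8 listed) summed to 2163 CPM in sham replicate 3 and to 36.7 to 72.1 CPM elsewhere, where Olig1 was at 0 to 0.23 CPM. Of the marker lists, those of macrophages and fibroblasts had sums that separated the groups. Macrophage markers (8 listed, none at 0) summed to 163 to 210 CPM in sham and 286 to 477 CPM in pSNL, with 7 of 8 fold changes positive, and fibroblast markers (5 listed, none at 0) to 1305 to 2810 and 3054 to 4993 CPM, with 5 of 5 positive. Lyz2 averaged 95.7 CPM in sham and 243 CPM in pSNL and weighed most in the macrophage sum. No marker of either list passed edgeR's threshold, while DESeq2 called 3 of the 8 and 2 of the 5. Sums of the other marker lists overlapped between the groups. Fold changes were positive in 1 and negative in 8 of 9 tested sensory neuron markers, with 1 called by DESeq2. They were positive in 4 and negative in 2 of 6 Schwann cell markers, also with 1 called by DESeq2. In such whole-tissue RNA, a change in the number of cells of a type and a change in RNA per cell cannot be told apart.

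Ribosomal RNA was the most abundant noncoding class by counted reads, which is no measure of its level in the tissue. Rn28s, the large subunit RNA (gene ID 100861535), was at 692, 1506 and 682 CPM in sham replicates 1 to 3 and at 530, 758 and 1334 CPM in pSNL replicates 1 to 3. Rn18s, the small subunit RNA (gene ID 100861533), was at 367, 868 and 332 CPM in sham and at 294, 388 and 685 CPM in pSNL. Both were highest in sham replicate 2 and next highest in pSNL replicate 3, and the groups overlapped. Their log2 fold changes were -0.13 ± 0.52 and -0.20 ± 0.55 (SE; edgeR adjusted p = 0.932 and 0.908), and both turned positive without sham replicate 2 (0.35 and 0.39) and without pSNL replicate 1 (0.13 and 0.047). The ratio of Rn28s to Rn18s counts moved less, between 1.74 and 2.06 over the 6 libraries.

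On the deposited scale per length, Rn18s stood above Rn28s, with a mean of 259 FPKM against 188 over the 6 libraries. In all, 336 genes had a higher mean FPKM than Rn18s and 502 a higher one than Rn28s. Rn45s, the precursor that contains the RNAs of Rn28s, Rn18s and Rn5-8s, was at 4.13, 10.3 and 7.35 CPM in sham and at 9.31, 6.24 and 8.26 CPM in pSNL. Rn5-8s, a further large subunit RNA, was at 2.98, 23.6 and 2.53 CPM in sham and at 11.8, 5.55 and 12.4 CPM in pSNL. Sham replicate 2 was the highest library for each of these, and neither passed the threshold (edgeR adjusted p = 0.897 and 0.993). All 4 had fractional counts in every library, so their reads were shared out between overlapping sequences by the authors' estimate, and levels of single ribosomal RNAs are uncertain. Rn5s had 9 counts over all libraries and Rpph1, the RNA of RNase P, 1 count.

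LOC100910973 (gene ID 100910973) had the smallest p of the noncoding genes. It is a long noncoding RNA of chromosome 1 in GRCr8 with no known role stated in the files. Its normalised read counts were 10.1, 11.7 and 8.73 CPM in sham replicates 1 to 3 and 17.7, 15.7 and 21.3 CPM in pSNL replicates 1 to 3. Every pSNL library lay above every sham library, with whole counts throughout. The log2 fold change was 0.84 ± 0.20, with means of 10.2 ± 1.49 and 18.3 ± 2.84 CPM (SD, n = 3 each; edgeR adjusted p = 0.0891, unadjusted p = 0.00169), so the difference did not pass the threshold over all genes. Over the other settings and with single libraries left out it lay between 0.62 and 0.95, with adjusted p from 0.0732 to 0.220. On the count scale, 133 counts in sham stood against 239 in pSNL, a ratio of 1.80 (95% exact counting interval 1.45 to 2.24, which leaves out the spread between libraries and, with no molecular identifiers, any duplicate reads).

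2810025M15Rikl (gene ID 680254), a long noncoding RNA of chromosome 13, was at 4.58, 3.90 and 3.45 CPM in sham and at 7.26, 5.55 and 6.65 CPM in pSNL. The groups did not overlap, and the log2 fold change was 0.70 ± 0.29 (edgeR adjusted p = 0.276). Its start lies 324 bases from that of Rasal2, which encodes a Ras GTPase-activating protein and runs the other way, so the promoter printed above shares 177 bases with the window of Rasal2. Rasal2 was at 3.90, 3.67 and 4.60 CPM in sham and at 7.49, 7.63 and 8.26 CPM in pSNL. Its groups did not overlap either, with a log2 fold change of 0.94 (edgeR adjusted p = 0.131), and neither gene of the pair passed the threshold. The summed macrophage and fibroblast markers given above separate the libraries in the same way as LOC100910973, 2810025M15Rikl and Rasal2, and their part in these differences was not tested.

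RT1-T24-2 (gene ID 415057), a noncoding gene of the rat major histocompatibility complex, was at 5.96, 4.82 and 3.22 CPM in sham and at 9.76, 6.01 and 6.19 CPM in pSNL. The lowest pSNL library lay just above the highest sham library, and the log2 fold change was 0.65 ± 0.33 (edgeR adjusted p = 0.383). Its counts were fractional in every library and it overlaps RT1-T24-3 and RT1-T24-4 in GRCr8, so how reads were shared among these genes is uncertain. The part of the macrophage and fibroblast markers, which were higher in pSNL too, was not tested. RT1-T24-4, a class I gene, averaged 15.2 ± 5.72 CPM (sham) and 26.4 ± 12.2 CPM (pSNL), and RT1-T24-3 at 13.8 ± 3.03 and 18.6 ± 8.02 CPM (SD, n = 3 each), and the groups overlapped for both (edgeR adjusted p = 0.414 and 0.548).

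RGD1559747 (gene ID 312310), coding in the newer table, was at 14.4, 15.8 and 21.1 CPM in sham and at 13.6, 11.3 and 12.4 CPM in pSNL. Every pSNL library lay below every sham library, by a small margin apart from sham replicate 3, and the log2 fold change was -0.46 ± 0.20 (edgeR adjusted p = 0.304). Sham replicate 3, the highest library, is the one with 2163 CPM of central glia markers, and it also held 511 CPM of skeletal muscle markers. Without sham replicate 3 the log2 fold change was -0.29. The part of those markers in the result was not tested.

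**Figure D3:**
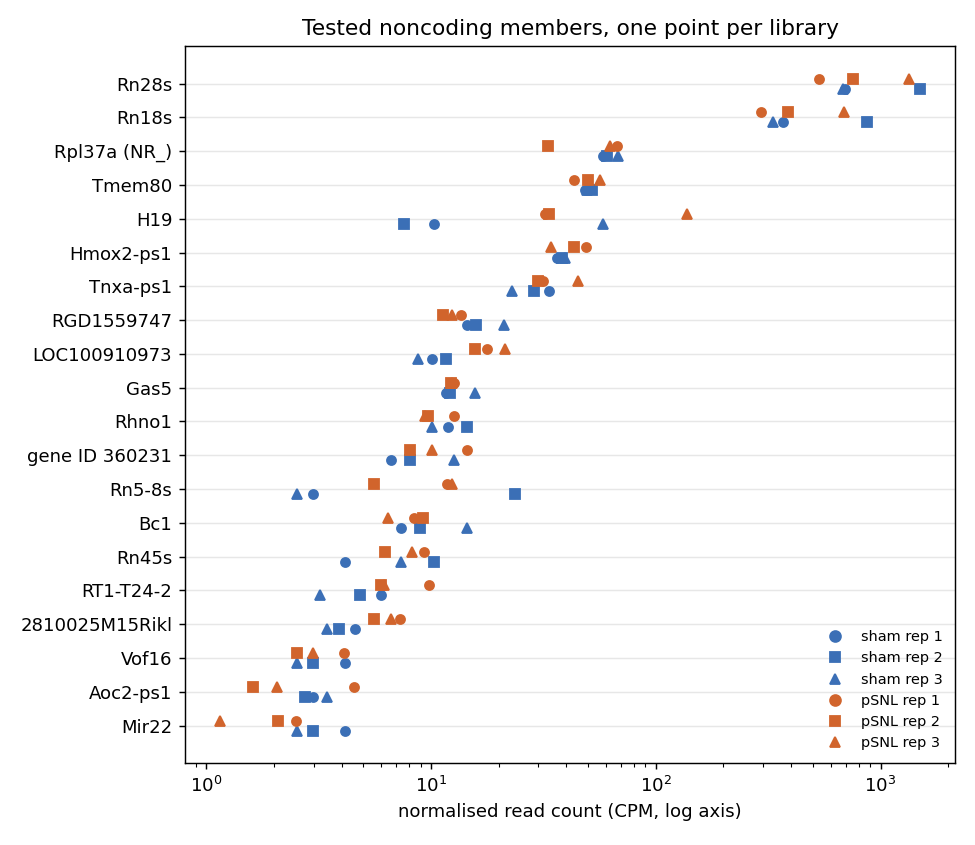
Normalised read count (CPM, log axis) of the 20 tested noncoding genes, 1 point per library, with sham in blue and pSNL in orange and the symbol shape giving the replicate. The ribosomal RNAs Rn28s and Rn18s lie highest, H19 spans 7.57 to 137 CPM, and LOC100910973 shows 2 separate groups.

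H19 (gene ID 309122), an imprinted long noncoding RNA known for high expression in fetal tissue and muscle, varied most among the long noncoding RNAs. It was at 10.3, 7.57 and 58.4 CPM in sham replicates 1 to 3 and at 32.0, 33.5 and 137 CPM in pSNL replicates 1 to 3. Both libraries numbered 3 were the highest of their group, and the groups overlapped through sham replicate 3. The log2 fold change was 1.41 ± 1.13 (edgeR adjusted p = 0.618). The same 2 libraries held the skeletal muscle markers, with 511 and 977 CPM, and Acta1, skeletal muscle actin, was at 192 and 368 CPM there against 7.80 to 11.1 CPM in the other libraries.

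Without both of these libraries, a setting chosen after the data were seen, 2 sham libraries at 10.3 and 7.57 CPM stood against 2 pSNL libraries at 32.0 and 33.5 CPM, with muscle marker sums of 19.3, 11.5, 13.4 and 14.6 CPM in turn. The log2 fold change was then 1.87 ± 0.20 (edgeR adjusted p = 0.0107). With single libraries left out it lay between 0.36, without pSNL replicate 3, and 2.92, without sham replicate 3, and did not pass. In the libraries of the setting without both numbered 3, fibroblast markers summed to 2810, 1974, 3054 and 4993 CPM in turn. Macrophage markers summed to 183, 163, 286 and 468 CPM, so both also separate the groups there. The parts of muscle, fibroblast and macrophage RNA in the H19 differences were not tested. That setting called 102 of all genes, of which 20 were also called in the main fit. Igf2, a growth factor gene of the same imprinted domain, was at 6.65, 20.2 and 29.2 CPM in sham and at 31.8, 15.7 and 14.2 CPM in pSNL (edgeR adjusted p = 0.938), with groups that overlapped. It was not highest in pSNL replicate 3, where H19 was. Mir675, the hairpin inside H19, was assigned 0.02 counts in all.

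**Figure D4:**
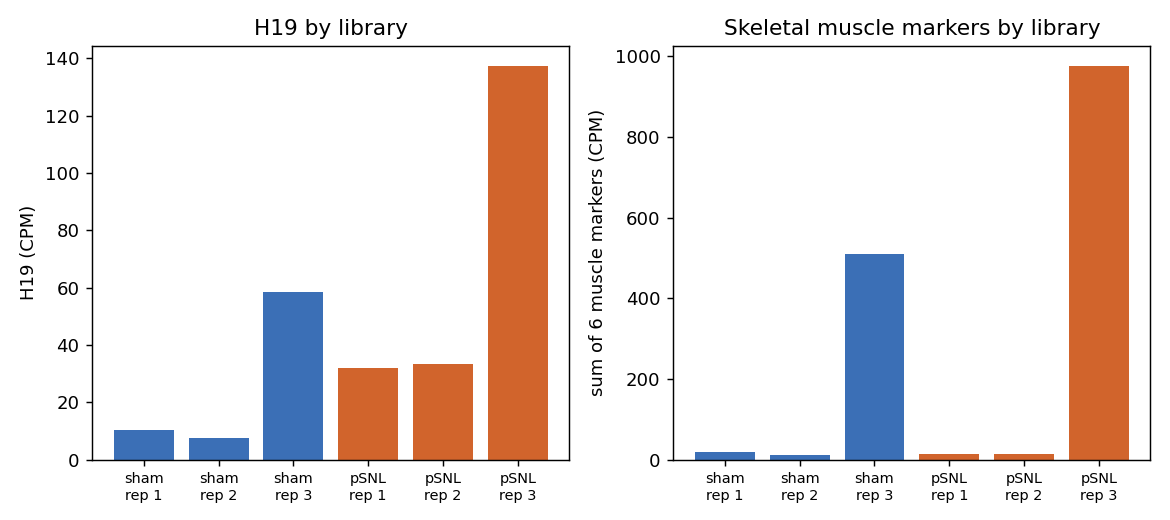
H19 (left) and the sum of 6 skeletal muscle markers (right) in CPM, 1 bar per library, sham in blue and pSNL in orange. Both measures are highest in pSNL replicate 3 and next highest in sham replicate 3, and H19 is also higher in pSNL replicates 1 and 2 than in sham replicates 1 and 2.

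Bc1 (gene ID 29294), a short neuronal RNA that represses translation in dendrites, was at 7.34, 8.95 and 14.5 CPM in sham and at 8.40, 9.25 and 6.42 CPM in pSNL. Its highest value was in sham replicate 3, the library high in both central glia and skeletal muscle markers, and the groups overlapped (log2 fold change -0.35 ± 0.29, edgeR adjusted p = 0.603). Without sham replicate 3 the log2 fold change was -0.025. Bc1 overlaps Lto1 in GRCr8, and Lto1 averaged 54.3 ± 7.24 CPM (sham) and 50.3 ± 2.37 CPM (pSNL; SD, n = 3 each; edgeR adjusted p = 0.702). Per length Bc1 stood below the ribosomal RNAs Rn18s, Rn28s and Rn5-8s and Rpl37a among the noncoding genes, with a mean of 77.2 FPKM against 31.9 for Gas5 and 19.5 for H19.

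Gas5 (gene ID 81714), the snoRNA host gene whose promoter is printed above, was at 11.7, 12.2 and 15.6 CPM in sham and at 12.7, 12.3 and 12.4 CPM in pSNL. The pSNL libraries lay within the range of the sham libraries, and the log2 fold change was -0.08 ± 0.19 (edgeR adjusted p = 0.884). Snhg4, the other snoRNA host gene, had 10 counts in sham and 9 in pSNL and did not pass the filter on low counts. Vof16, a long noncoding RNA, was at 3.21 ± 0.82 and 3.20 ± 0.80 CPM (SD, n = 3 each; edgeR adjusted p = 0.998).

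Several members share sequence with coding genes. Rpl37a, a ribosomal protein of the large subunit, is listed under an NR_ accession (gene ID 363248) and under NM_ accessions (gene ID 100361520). The NR_ copy was at 58.0, 60.8 and 67.8 CPM in sham and at 67.4, 33.3 and 62.8 CPM in pSNL, with a low value in pSNL replicate 2 alone. The NM_ copy was at 74.5, 57.8 and 79.7 CPM in sham and at 69.9, 102 and 88.3 CPM in pSNL, with its highest value in that same library. The NR_ copy held 24.6% of their sum in pSNL replicate 2 and 41.6% to 51.3% in the other libraries, while the sum was 118.7 to 151.1 CPM. Neither copy differed past the threshold (edgeR adjusted p = 0.763 and 0.418), and the level of a single copy is uncertain.

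Hmox2-ps1, a transcribed pseudogene of the haem oxygenase gene Hmox2, was at 36.5, 38.3 and 39.5 CPM in sham and at 49.0, 43.2 and 34.2 CPM in pSNL. The pSNL libraries spread to both sides of the sham libraries (log2 fold change 0.15 ± 0.14, edgeR adjusted p = 0.664). Its parent Hmox2 averaged 134 ± 4.36 CPM (sham) and 115 ± 11.0 CPM (pSNL; SD, n = 3 each), with groups that did not overlap, and fell short of the threshold (edgeR adjusted p = 0.300). The pseudogene held 20.8% to 29.4% of the sum of the pair. Its counts were fractional in every library, so how its reads were shared with other sequences is uncertain. Pseudogene shares were far smaller for Ybx1-ps20, at 0.9% to 3.1% of its sum with the RNA-binding protein gene Ybx1.

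Tnxa-ps1, a pseudogene related to tenascin X, had whole counts in every library and was at 33.5, 28.7 and 23.0 CPM in sham and at 31.6, 29.8 and 45.0 CPM in pSNL. Its highest value was in pSNL replicate 3, and the groups overlapped (log2 fold change 0.32 ± 0.19, edgeR adjusted p = 0.462). Tmem80, a transmembrane protein gene in the newer table, was at 48.6, 52.1 and 49.4 CPM in sham replicates and at 43.1, 49.7 and 56.2 CPM in pSNL replicates, with a log2 fold change of -0.01 ± 0.12 (edgeR adjusted p = 0.977). The remaining tested genes were Rhno1, a gene of the DNA damage checkpoint, at 12.2 ± 2.18 and 10.6 ± 1.83 CPM, Aoc2-ps1 at 3.06 ± 0.35 and 2.74 ± 1.57 CPM, and gene ID 360231 at 9.11 ± 3.14 and 10.9 ± 3.30 CPM in sham and pSNL (SD, n = 3 each). None of these passed the threshold (edgeR adjusted p = 0.720, 0.903 and 0.729).

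The microRNA genes were numerous and thinly covered. The 61 genes held 305.2 counts over all 6 libraries, or 0.663% of the noncoding counts, 44 of them had at most 3 counts, and 30 were listed in a single library. The libraries are not labelled as small RNA libraries, so these are reads assigned to the hairpin stretch and are no measure of the mature microRNA. By library the class summed to 15.6, 13.8 and 11.3 CPM in sham and to 8.63, 12.3 and 8.49 CPM in pSNL. Sham replicate 3 lay below pSNL replicate 2, so the groups overlapped. By position in the GRCr8 table, without regard to strand, 29 hairpins overlapped a protein-coding gene, of which 23 had that gene listed. A further 20 overlapped only a long noncoding RNA gene, and 12 overlapped neither. A gene that overlaps a hairpin in this way need not carry it in its transcript. Another microRNA gene overlapped 14 of the hairpins.

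Mir22 (gene ID 100314001), whose 2 arms are printed above, was the only hairpin to pass the filter on low counts. The sham libraries had 18, 13 and 11 counts, by replicate, and the pSNL libraries 11, 9 and 5. The lowest sham and the highest pSNL library had the same count, and the groups fail to overlap only through scaling (2.53 against 2.50 CPM). The log2 fold change was -0.74 ± 0.42 (edgeR adjusted p = 0.426). Summed counts were 42 and 25, a ratio of 0.596 (95% exact counting interval 0.348 to 1.0). Mir22 lies in no other gene of the table.

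Mir3074 had 16 counts in sham and 12 in pSNL, and Mir24-1, on the opposite strand of the same locus, had 5 and 2. Mir568, which overlaps the transcription factor gene Zbtb20, had 13 and 12 counts. Mir3561 had 7, 2 and 3 counts in sham and 1, 0 and 0 in pSNL, a difference in 13 counts that was noticed after the values were seen. With no filter on low counts its log2 fold change was -3.18 ± 1.19 (edgeR adjusted p = 0.259), the smallest adjusted p of the 80 members that this setting adds. Mir3556b and Mir29c, again on opposite strands of a locus, had 8 and 6 counts in sham and 3 and 4 in pSNL. Mir331 had 8 and 2 counts and Mir3546 had 8 and 4. These hairpins did not pass the filter on low counts, and none was called with no filter or by limma on log2 FPKM.

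**Figure D5:**
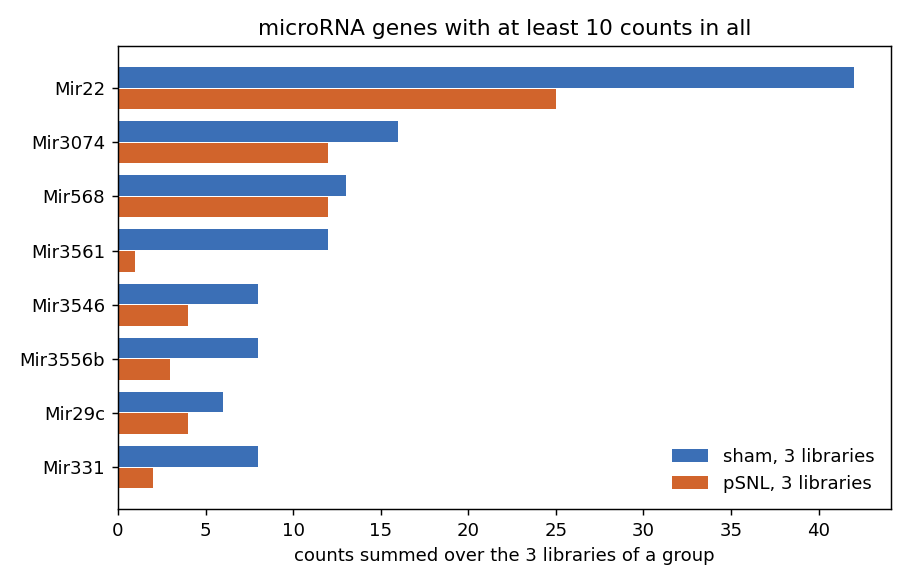
Group totals of counts (3 libraries each) for the 8 microRNA genes with at least 10 counts in all, sham in blue and pSNL in orange. Mir22 leads with 42 and 25 counts, and the other hairpins have 16 or fewer in a group.

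Further long noncoding RNA genes and pseudogenes were low. RT1-CE6, in the histocompatibility complex, had 23.36 counts over all libraries, Gapdh-ps1 had 15.82 and Abhd11-as1 had 7 counts in sham and 8 in pSNL. FPKM values of short genes follow another length than the one listed. The length implied by count and FPKM was a median of 63.7% of the listed length for members of up to 130 bases and the listed length itself for long members. Hairpins thus stand higher on the FPKM scale than count over listed length would place them. Bc1 (152 bases) and Rn5-8s (156 bases) were in neither set, and their FPKM may be raised in the same way.

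Protein partners of noncoding RNAs were read from the same fit. Lists covered RNase P and MRP, snoRNPs, paraspeckles, the 7SK particle, the signal recognition particle, microRNA biogenesis and nonsense-mediated decay. edgeR called 0 of the 50 tested partner genes, against 0.46% of all tested genes, and DESeq2 also 0, against 2.59%. An edgeR p under 0.05 before adjustment was found for 4 of the 50, against 15.5% of all tested genes. Of the 50, 21 had a positive and 29 a negative fold change, and the median log2 fold change was -0.04, beside 0.0 over all genes. Rpp21, a protein of RNase P, was at 10.8, 9.41 and 11.95 CPM in sham and at 14.1, 15.7 and 16.7 CPM in pSNL (edgeR adjusted p = 0.214). Its groups did not overlap, and neither did those of Drosha, the nuclease that releases hairpins, at 97.2, 99.6 and 102 CPM in sham and at 85.4, 88.8 and 87.8 CPM in pSNL (edgeR adjusted p = 0.323).

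By particle, the counts of partner genes ran in both directions for most lists. Positive and negative fold changes numbered 7 and 4 of 11 for RNase P and MRP, 4 and 5 of 9 for snoRNPs, 2 and 5 of 7 for paraspeckles, and 1 and 4 of 5 for the 7SK particle. They numbered 0 and 6 of 6 for the signal recognition particle, 4 and 2 of 6 for microRNA biogenesis, and 3 and 3 of 6 for nonsense-mediated decay. Srp72, a subunit of the signal recognition particle, had means of 193 ± 13.3 CPM (sham) and 172 ± 0.84 CPM (pSNL; SD, n = 3 each; edgeR adjusted p = 0.383), and Xpo5, the exporter of microRNA hairpins, at 43.6 ± 5.17 and 55.0 ± 6.83 CPM (edgeR adjusted p = 0.260). Nolc1, a chaperone of snoRNPs, was lower in each pSNL library, at 178 ± 6.38 and 157 ± 6.21 CPM (edgeR adjusted p = 0.315).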

How the data were processed

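Each library has 1 deposited file with, per the file headers, expected counts, FPKM and length by gene. CASAVA 1.4 and Bowtie2 are named, with no role, per the submitters' processing notes. No source used here names the quantifier, the build or the annotation. Libraries were made from 1 µg of total RNA, per the labels' protocols. Genes that a library does not list were set to 0. Of the listed expected counts, 89.1% to 89.5% were whole, and all were rounded. Symbols came from RefSeq GRCr8 by gene ID for 99 of 101 members. edgeR 4.0.16 (R 4.3.3; TMM, default filter on low counts, robust quasi-likelihood F test, Benjamini-Hochberg over all tested genes, threshold 0.05) compared pSNL with sham, was tested on simulated data, and gave CPM on TMM-scaled library sizes; standard errors come from the test statistic. Deposited FPKM served for levels between genes. Alternatives used DESeq2 1.42.0, limma 3.58.1, other scalings and filters, and left-out libraries. Members and lists were chosen with earlier results of these data known. Named genes are the most abundant members overall and per class, those with the smallest p or with groups that do not overlap, and the 2 partners with the smallest p per list, of which some are given; other genes, such as Mir3561, Mir24-1 and Mir675, were added after their values were seen.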

Additional observations from a re-analysis of the deposited data

How the results depend on the processing

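Of 320 log2 fold changes of the 20 tested members under other settings, 291 kept their direction and their side of the threshold. H19 passed with the replicate block (1.58, edgeR adjusted p = 0.00909) and without both libraries numbered 3 (1.87), so 1 noncoding gene was called in each of these and 0 in all other settings. The replicate numbers were not taken to pair the libraries, as deviations of same-numbered libraries correlated at 0.032, 0.011 and 0.123, and sham replicate 2 correlated best with pSNL replicate 1. Over all genes, calls numbered 51 and became 320 with DESeq2, 89 with no filter on low counts, 111 with the replicate block, 102 without both libraries numbered 3, and 5 to 217 with single libraries left out. Some directions turned, and the cause was not tested. Without both libraries numbered 3 the log2 fold change was -0.019 for Tnxa-ps1, 0.11 for Bc1, 0.064 for Gas5, 0.10 for Aoc2-ps1 and -0.61 for Rn5-8s. For Vof16 it was 0.004 with library totals only, 0.046 with unrounded counts, and 0.052 and 0.033 with limma on log2(FPKM + 0.1) and log2(FPKM + 1). With single libraries left out it spanned -0.37 to 0.06 for Rpl37a, -0.16 to 0.058 for Gas5, -0.15 to 0.46 for Rn45s, -0.72 to 0.10 for Aoc2-ps1, -0.61 to 0.39 for Rn18s, -0.57 to 0.35 for Rn28s, -0.11 to 0.087 for Tmem80, -0.42 to 1.83 for Rn5-8s and -0.21 to 0.22 for Vof16. The noncoding share of counts differed by -0.01 percentage points and by -0.048 to 0.034 with single libraries left out. No partner gene was called under any setting. The other 81 members had too few counts to pass the filter, and none was called with no filter (80 fitted) or by limma (76 fitted).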
